A study of Caenorhabditis elegans with 9 samples.

Results

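Newly fed first-stage (L1) larvae of Caenorhabditis elegans labelled as mutant for the enzyme OGT-1 were compared with wild-type larvae of the same stage. The comparison held 6 of the 9 arrays of the series. The 3 ogt-1 mutant arrays came from larvae with the ogt-1 allele ok430, per their labels, and the 3 wild-type arrays from larvae labelled wild type. The arrays were chosen by their titles, and all 22548 probe sets other than the array's own controls were tested. Per the labels' protocols, both groups hatched in sterile buffer without food from embryos freed by bleaching, were collected 48 h later, were given OP50 bacteria on NGM plates for 3 h and were then taken for RNA. Each sample was whole larvae, and 4 ug of total RNA was made into biotin-labelled cRNA. The labels call the arrays of a genotype biological replicates 1 to 3 without saying whether these were separate cultures, so the p-values measure the spread between these samples. The mutant is 1 allele of the gene, and its strain history is not stated in the labels. The other 3 arrays, from larvae with the oga-1 allele ok1207, entered the fit to estimate the spread between replicates.

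OGT-1 attaches the sugar N-acetylglucosamine to serines and threonines of nuclear and cytoplasmic proteins, a modification called O-GlcNAc, and OGA-1 removes it. The sugar donor is made from glucose, amino acid, fatty acid and nucleotide precursors by the hexosamine pathway, so the modification is regarded as a reporter of nutrient supply. Worms without OGT-1 are viable, and the gene is known in C. elegans for its genetic link to insulin-like signalling, to dauer formation and to the stores of fat and carbohydrate. An L1 larva that meets food leaves its arrest and switches from stored fat to a fed metabolism, the stage at which these samples were taken.

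Values are the log2 signals of probe sets as deposited, given in the order of replicates 1 to 3. Changes are the mean of the ogt-1 mutant minus the mean of wild type on the log2 scale, with the standard error (SE) of limma's fit (n = 3 arrays in each group), and adjusted p-values are limma's, adjusted by Benjamini-Hochberg over all probe sets. The threshold for a call was an adjusted p under 0.05, and "rose" and "fell" are used of called probe sets. Background was not assessed, and changes of dim probe sets may be understated, so folds are given where both group means reached the median signal of the array (7.45). A gene is called marked where the identifier of its probe set warns of cross-hybridisation with related sequences, which makes its value uncertain. A gene with several probe sets was counted in a gene list by the one of highest mean signal, and the probe sets are given separately where they differ. Signals of different probe sets are not comparable with each other, so levels are compared between genotypes only. Each call was refitted without each of the 9 arrays, written M1 to M3 for the ogt-1 mutant, W1 to W3 for wild type and G1 to G3 for the oga-1 mutant. A call that is "lost without W2" had an adjusted p of 0.05 or more in the fit that left out wild-type array 2. The block fit adds the replicate number as a block, a pairing that was read from these data and that no label gives. The gap fit adds a measure of control signal described next.

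Some control probe sets of the arrays differed between the groups. Hybridisation spikes, bacterial transcripts added to each sample in equal amount, averaged 10.43, 10.07 and 10.04 in ogt-1 mutant arrays 1 to 3, against 9.94, 9.98 and 9.94 in wild-type arrays 1 to 3. The catalase control, whose 3' signal exceeds its 5' signal by more where RNA or cRNA is shorter, had a gap of 2.09, 1.32 and 1.82 in ogt-1 mutant arrays, against 1.01, 0.721 and 1.12 in wild-type arrays. Neither measure overlapped between the groups, with differences of 0.223 and 0.794 and a two-sided exact permutation p of 0.1 each, the smallest that 3 arrays against 3 can give. The same gap averaged over ubiquitin, actin and GAPDH was 1.43 ± 0.106 in the ogt-1 mutant and 1.2997 ± 0.0434 in wild type (SD, n = 3 each), and its groups overlapped (difference 0.135, exact permutation p = 0.2). The ubiquitin gap alone did not overlap, at 3.36 to 3.57 in ogt-1 mutant arrays and 3.28 to 3.34 in wild-type arrays (exact permutation p = 0.1). Those of actin and GAPDH did. The part of these control differences in the results below was not tested beyond 2 refits. In the gap fit, which holds the gap averaged over ubiquitin, actin and GAPDH as a covariate, 49 probe sets were called (35 higher, 14 lower) in place of 584. With the arrays centred on the spikes, 1257 were called (117 higher, 1140 lower), and the median change of all probe sets moved by -0.22.

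**Figure D1:**
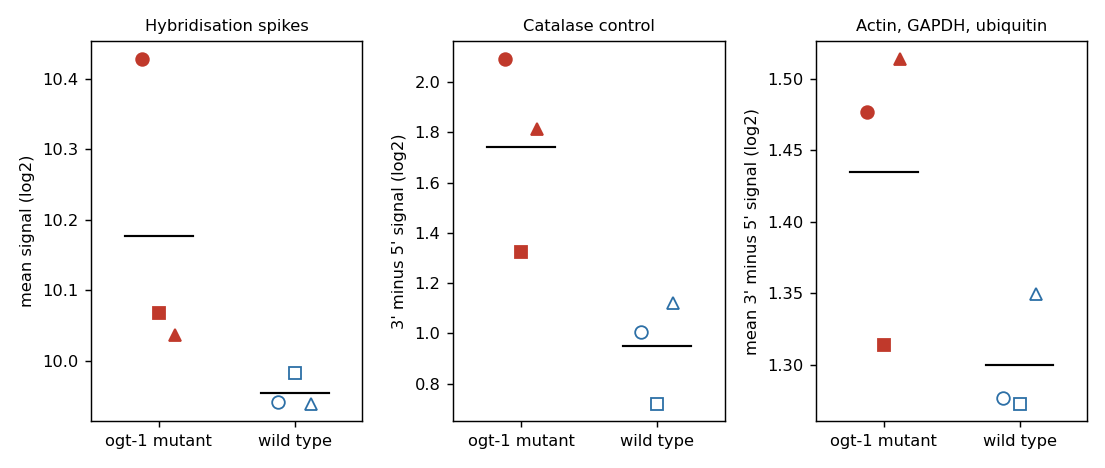
Control probe sets of the 3 ogt-1 mutant arrays (red, filled) and the 3 wild-type arrays (blue, open), 1 point per array with the group mean as a bar; symbols mark replicates 1 (circle), 2 (square) and 3 (triangle). The mutant arrays lie above the wild-type arrays in spike signal and in the catalase gap (both in log2), and the groups overlap in the average gap of ubiquitin, actin and GAPDH.

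The targeted gene was examined first. At one ogt-1 probe set the ogt-1 mutant arrays had 9.97, 9.99 and 9.69, against 9.32, 9.10 and 9.12 in wild-type arrays. The mutant was the higher group without overlap (change 0.70 ± 0.11, adjusted p = 0.0141). The call was lost without M1, W2 or W3 (adjusted p = 0.0527 to 0.0759). The other ogt-1 probe set read 11.43, 11.43 and 11.17 in ogt-1 mutant arrays and 10.87, 10.76 and 10.94 in wild-type arrays and did not pass the test (0.48 ± 0.17, adjusted p = 0.187). Both are marked. The labels and tables do not place these probes inside or outside the deleted stretch, so the signal does not check the genotype, and the directions below rest on the labels. The oga-1 gene, which encodes the opposing enzyme, gave changes of 0.10, 0.08 and 0.12 at its probe sets, none of them called.

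In all, 584 of 22548 probe sets were called (2.59%), 268 higher (1.19%) and 316 lower (1.4%) in the ogt-1 mutant. They belonged to 515 named genes. Counted with 1 probe set per gene, 474 of 17118 genes were called (2.77%), 215 higher (1.26%) and 259 lower (1.51%). These shares are the background for the counts of this fit in every gene list below. The lists were chosen with earlier results of these data known. A list share above the background is therefore a description and not a test. The groups did not overlap at any called probe set. By comparison they did not overlap at 21% of all probe sets (9.98% higher, 11% lower) or, by gene, at 21.3% (9.86% higher, 11.5% lower). Most changes were moderate. The median change was 0.70 among probe sets that rose and -0.66 among those that fell, and 105 changed by more than 1 on the log2 scale (61 higher, 44 lower). For 159 called probe sets both group means lay below the median signal. Of the 584 calls, 118 (74 higher, 44 lower) were made whichever single array was left out. Many genes named below are not among them, and the arrays that end each such call are given. The total was 138 without W2, 248 without W3, 188 without M1, 252 without M3 and 357 without G2, and it was 270 in a fit on the 6 arrays alone. In the block fit it was 1034 (435 higher, 599 lower), among them 572 of the 584. By gene the block fit called 340 higher and 505 lower of 17118. These are the background for its counts in the lists below. In samples of whole larvae, fewer cells of a type and less RNA per cell cannot be told apart.

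**Figure D2:**
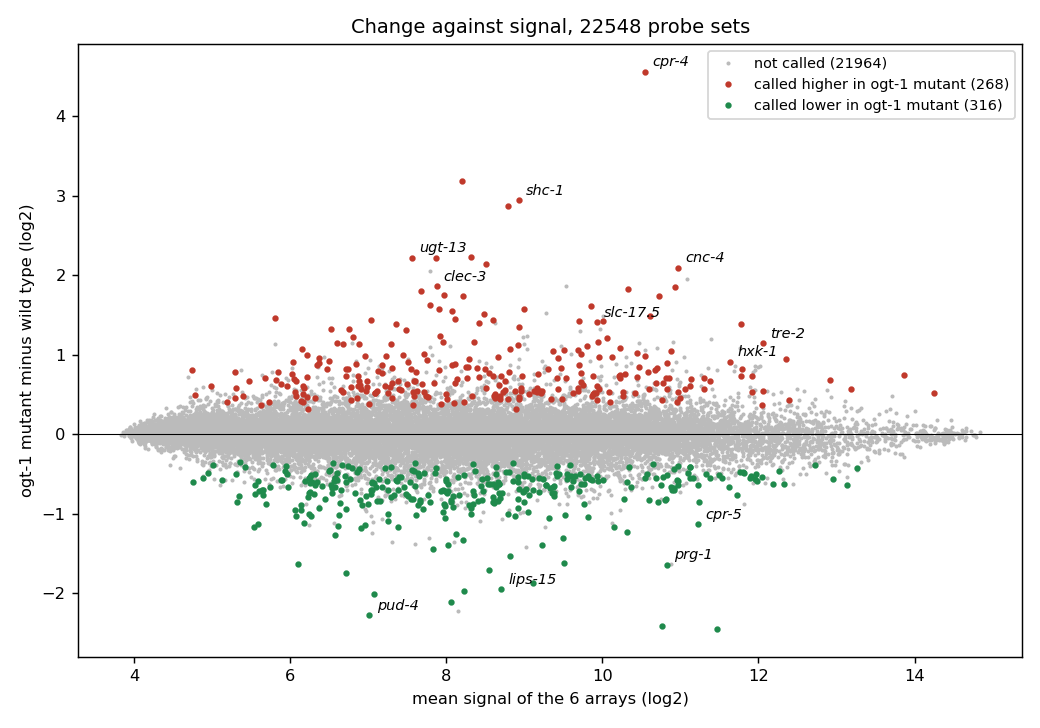
Change in the ogt-1 mutant (mean of the ogt-1 mutant minus mean of wild type, log2) against the mean signal of the 6 arrays (log2), 1 point per probe set. Red points are the 268 probe sets called higher, green points the 316 called lower and grey points those not called; cpr-4 stands highest at 4.55.

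The largest change of all belonged to cpr-4, which encodes a secreted cathepsin B-like cysteine protease. Its signal was 12.75, 12.75 and 12.97 in ogt-1 mutant arrays, against 8.70, 8.16 and 7.96 in wild-type arrays. Every mutant array stood more than 4 log2 units above the mean of wild type (23.5-fold, change 4.55 ± 0.18, adjusted p = 4.51e-06). Other genes of the family went the other way. The cpr-5 probe set, which is marked, gave 10.70, 10.51 and 10.75 in ogt-1 mutant arrays, against 11.45, 11.80 and 12.11 in wild-type arrays (2.19-fold lower, -1.13 ± 0.15, adjusted p = 0.00653). At cpr-8 the signals were 6.44, 6.28 and 6.45 in ogt-1 mutant arrays, against 7.41, 7.41 and 7.80 in wild-type arrays (-1.15 ± 0.14, adjusted p = 0.00489). Both fell without overlap, and cpr-5 and cpr-8 lie next to each other among the measured genes of their chromosome. These 3 calls, 1 higher and 2 lower among 11 measured cathepsin genes, held in all 9 refits (9.09% and 18.2%, and in the block fit 1 rose and 3 fell). In the gap fit cpr-5 was not called, at a change of -1.29 (adjusted p = 0.0577). The remaining 8 cathepsin genes, among them cpr-1, cpl-1 and cpz-1, were not called. None of the 15 aspartyl protease genes was called, and the marked asp-14 read 12.08, 12.41 and 12.07 in ogt-1 mutant arrays and 11.96, 11.46 and 11.37 in wild-type arrays (adjusted p = 0.148). Of 98 genes of lysosomes and autophagy 1 was called: vps-35, a subunit of the retromer that returns receptors from endosomes, gave 0.43 ± 0.09 (adjusted p = 0.0402), and its call was lost without any one of the 9 arrays (adjusted p = 0.0506 to 0.146).

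**Figure D3:**
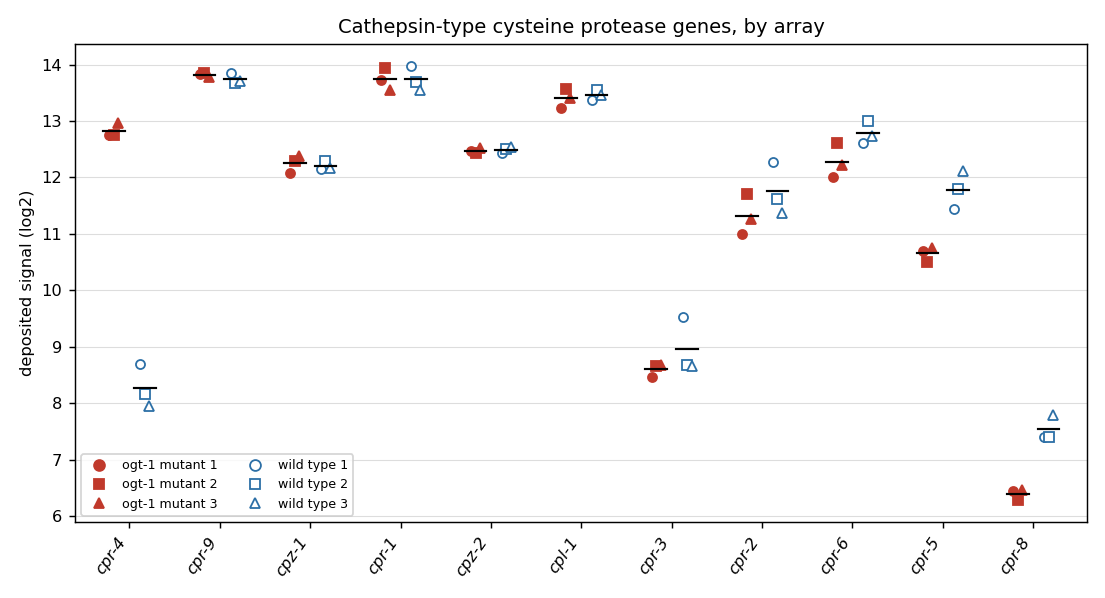
Deposited log2 signal of the 11 measured cathepsin-type protease genes in each ogt-1 mutant array (red, filled) and wild-type array (blue, open), ordered from the largest rise to the largest fall, with group means as bars. The mutant arrays lie far above wild type at cpr-4, below it at cpr-5 and cpr-8, and overlap with it at the other 8.

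Among named genes that reached the median signal the rise second in size was that of shc-1, the worm gene of the Shc adaptors, which in C. elegans links the insulin receptor DAF-2 and the JNK pathway to the transcription factor DAF-16. One probe set read 10.22, 10.36 and 10.60 in ogt-1 mutant arrays, against 7.86, 7.18 and 7.33 in wild-type arrays (7.67-fold, 2.94 ± 0.19, adjusted p = 0.000189). A second rose by 2.87 ± 0.18 (adjusted p = 0.000159). Both are marked, and both calls were made whichever array was left out. The unmarked probe set read 8.47, 8.39 and 8.77 in ogt-1 mutant arrays, against 7.90, 6.96 and 7.06 in wild-type arrays, also without overlap (1.23 ± 0.25, adjusted p = 0.0367). That call was lost without M1, M2, M3, W2, W3 or G2 (adjusted p = 0.0630 to 0.145). Among 26 genes of the chain from the insulin receptor to DAF-16, shc-1 was the 1 called; the list's median change was -0.0424, against -0.000185 over all genes.

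Insulin-like peptides, the ligands of DAF-2, supplied 3 rises and no fall among 24 measured genes (12.5%, against 1.26% of all genes). The ins-3 signal was 7.33, 7.62 and 7.39 in ogt-1 mutant arrays, against 6.02, 6.50 and 6.42 in wild-type arrays (1.13 ± 0.14, adjusted p = 0.00462). Its neighbour ins-4 read 6.77, 6.90 and 7.20 in ogt-1 mutant arrays, against 6.13, 5.83 and 6.15 in wild-type arrays (0.92 ± 0.16, adjusted p = 0.0219). For ins-11, whose probe set is marked, the signals were 10.12, 10.59 and 9.99 in ogt-1 mutant arrays, against 9.43, 9.28 and 8.95 in wild-type arrays (2.01-fold, 1.01 ± 0.16, adjusted p = 0.0148). Mutant and wild-type arrays were separate at all 3 genes. The ins-3 call held in all 9 refits, that of ins-11 was lost without W2 (adjusted p = 0.0588), and that of ins-4 without M3, W2 or W3 (adjusted p = 0.0507 to 0.102). In the gap fit 1 of the 3 genes stayed called. Both group means of ins-3 and of ins-4 lay below the median signal, as did those of 14 of the 24 genes.

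The marked gene dod-24, known as a gene that DAF-16 represses, rose, with 11.08, 11.72 and 11.29 in ogt-1 mutant arrays against 10.25, 9.82 and 9.54 in wild-type arrays (2.81-fold, 1.49 ± 0.25, adjusted p = 0.0182). The neighbouring pair pud-3 and pud-4, named as proteins upregulated in daf-2 mutants, fell. At pud-4 the ogt-1 mutant arrays had 5.86, 6.57 and 5.21 and the wild-type arrays 7.56, 8.41 and 8.5 (-2.28 ± 0.32, adjusted p = 0.00849). At pud-3 the ogt-1 mutant arrays had 7.18, 7.85 and 6.01 and the wild-type arrays 8.52, 9.31 and 9.52 (-2.1 ± 0.41, adjusted p = 0.0307), so that mutant array 2 was the highest and array 3 the lowest mutant array at both genes. The pud-4 call held in all 9 refits. That of pud-3 was lost without M1, W2, W3, G1 or G2 (adjusted p = 0.0504 to 0.123), and that of dod-24 without M2, M3, W2 or W3 (adjusted p = 0.05002 to 0.0845). In a list of 49 genes known from studies of DAF-16, which does not hold the pud genes, 2 rose (4.08%) and none fell. The 2 were dod-24 and the marked icl-1, described below, and the other 47 were not called. No gene was called among 26 of the TGF-beta and steroid hormone pathways of dauer formation, where daf-7, the TGF-beta ligand, read 12.18, 11.96 and 11.96 in ogt-1 mutant arrays and 12.78, 12.45 and 12.55 in wild-type arrays (-0.56 ± 0.15, adjusted p = 0.0845).

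Among genes of sugar metabolism a few were higher. Hexokinase, the enzyme that traps glucose in the cell by phosphorylation and so feeds both glycolysis and the hexosamine pathway, is encoded by hxk-1 among others. Its unmarked probe set read 12.08, 12.13 and 12.07 in ogt-1 mutant arrays, against 11.08, 11.30 and 11.17 in wild-type arrays (1.88-fold, 0.91 ± 0.10, adjusted p = 0.00177), and a marked one gave 0.70 ± 0.11 (adjusted p = 0.0118). The marked gene tre-2, one of the trehalases that split the storage sugar trehalose into glucose, had 12.42, 12.64 and 12.81 in ogt-1 mutant arrays, against 11.37, 11.53 and 11.54 in wild-type arrays (1.14 ± 0.11, adjusted p = 0.000811). The mutant arrays were higher without overlap at both genes, and these calls held in all 9 refits. One more rise, of the marked gene icl-1, the glyoxylate cycle enzyme that makes sugar from fat, was smaller (0.52 ± 0.12, adjusted p = 0.0479) and was lost without M1, M2, M3, W2, W3, G1, G2 or G3 (adjusted p = 0.0543 to 0.174). In the list of glycolysis and gluconeogenesis 2 of 24 genes rose and none fell (median 0.0764). Of 12 genes of O-GlcNAc cycling and hexosamine synthesis hxk-1 was the 1 called, and of 8 trehalose genes tre-2 was.

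Further down the pathway 2 genes fell, none rose and the median was lower. In a list of 63 citric acid cycle and respiratory chain genes, the marked gene sdha-2, a subunit of succinate dehydrogenase, fell by 0.72 on the log2 scale, with 8.41, 8.69 and 8.79 in ogt-1 mutant arrays and 9.38, 9.46 and 9.21 in wild-type arrays (adjusted p = 0.0194). The cytosolic aconitase gene aco-1 had 11.75, 12.11 and 11.76 in ogt-1 mutant arrays and 12.42, 12.62 and 12.45 in wild-type arrays (-0.62 ± 0.12, adjusted p = 0.0262). Their calls were lost without M1 or W2 (adjusted p = 0.0614 to 0.1002) for sdha-2 and without M1, M3, W2 or W3 (adjusted p = 0.0650 to 0.119) for aco-1. The median of the list was -0.14. In the gap fit it was -0.0453, and sdha-2 and aco-1 were not called, with changes of -0.65 and -0.47.

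In the lists of lipases (28 genes), beta-oxidation (63) and fatty acid synthesis (37) together 1 gene rose (acs-2) and 5 fell (lips-15, acox-1.6, acox-3, elo-4 and fat-2). The genes hyl-1 and lbp-7, also described here, are in none of these lists. The lipase gene lips-15 had 7.37, 8.18 and 7.64 in ogt-1 mutant arrays, against 9.53, 9.78 and 9.72 in wild-type arrays, a 3.86-fold lower signal (-1.95 ± 0.18, adjusted p = 0.000779). The ceramide synthase gene hyl-1, which makes the backbone of sphingolipids and is marked here, had 8.22, 8.54 and 8.35 in ogt-1 mutant arrays and 9.42, 9.44 and 9.33 in wild-type arrays (2.04-fold lower, -1.03 ± 0.10, adjusted p = 0.000934). The elongase gene elo-4 fell by 0.62 on the log2 scale, with 6.05, 5.92 and 5.87 in ogt-1 mutant arrays and 6.52, 6.60 and 6.57 in wild-type arrays (adjusted p = 0.00486). Neither group overlapped with the other at these 3 genes, and the calls held in all 9 refits. In the gap fit lips-15 and hyl-1 stayed called and elo-4 was not called. The fatty acid binding gene lbp-7 gave 9.18, 9.59 and 9.12 in ogt-1 mutant arrays and 10.06, 10.55 and 10.39 in wild-type arrays (2.05-fold lower, adjusted p = 0.0156), with its call lost without M1, M3, W2 or W3 (adjusted p = 0.0531 to 0.0761).

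In fatty acid breakdown, 2 acyl-CoA oxidases of the peroxisome and the acyl-CoA synthetase acs-2, which activates fatty acids for oxidation and is known in C. elegans as a gene that fasting raises, moved in opposite directions. At acs-2 the ogt-1 mutant arrays had 10.69, 10.57 and 10.75, against 9.93, 9.30 and 9.13 in wild-type arrays (2.32-fold, 1.21 ± 0.22, adjusted p = 0.0252). The other acs-2 probe set rose by 1.61 ± 0.36 (adjusted p = 0.0487). The marked gene acox-3 had 8.68, 9.12 and 8.56 in ogt-1 mutant arrays and 10.31, 9.69 and 9.51 in wild-type arrays (-1.05 ± 0.23, adjusted p = 0.0468), and the marked acox-1.6 gave -0.81 ± 0.13 (adjusted p = 0.0137). None of these calls held in every case. The first acs-2 probe set was lost without M1, M2, M3, W2 or W3 (adjusted p = 0.0518 to 0.114), the second without M1, M2, M3, W2, W3 or G3 (adjusted p = 0.0689 to 0.170), acox-3 without M1, M3, W1, W2, W3, G1, G2 or G3 (adjusted p = 0.0517 to 0.156) and acox-1.6 without M1 or W2 (adjusted p = 0.0560 to 0.0699). Of 63 genes of beta-oxidation 1 rose and 2 fell, and in the block fit 2 rose and 7 fell. Of 37 genes of fatty acid synthesis and desaturation none rose and 2 fell (block: 0 and 5). The second of these was fat-2, the desaturase that starts the synthesis of polyunsaturated fatty acids, which had 12.94, 13.16 and 13.05 in ogt-1 mutant arrays and 13.39, 13.53 and 13.50 in wild-type arrays (-0.42 ± 0.09, adjusted p = 0.0497) and whose call was lost without any one of the 9 arrays (adjusted p = 0.0517 to 0.193). The median change of that list was -0.257, and 1 of 28 lipase genes, lips-15, was called (block: 1 higher, 3 lower).

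The UDP-glucuronosyltransferase gene ugt-13, whose product belongs to the enzymes that attach sugars to foreign compounds, had 8.94, 8.94 and 8.12 in ogt-1 mutant arrays, against 6.43, 6.33 and 6.58 in wild-type arrays (2.22 ± 0.19, adjusted p = 0.000686). It was the 1 member of 64 that rose, while ugt-4, the marked ugt-17, ugt-26 and ugt-62 fell by 0.62, 0.68, 0.62 and 0.85 on the log2 scale. The flavin monooxygenase gene fmo-1 was lower at both of its probe sets. The unmarked one read 7.39, 7.69 and 7.43 in ogt-1 mutant arrays and 8.65, 8.77 and 8.86 in wild-type arrays (2.39-fold lower, -1.26 ± 0.11, adjusted p = 0.000686), and the marked one gave -1.39 ± 0.13 (adjusted p = 0.000811). The calls of ugt-13 and fmo-1 held in all 9 refits. That of ugt-4 was lost without M1, M3, W2 or W3 (adjusted p = 0.0525 to 0.102), ugt-17 without M1, M2, M3, W2, W3, G1, G2 or G3 (adjusted p = 0.0629 to 0.155), ugt-26 without M1, M3, W1 or W3 (adjusted p = 0.0519 to 0.0847) and ugt-62 without M1, M3 or W2 (adjusted p = 0.0862 to 0.0983). In the block fit 1 rose and 9 fell in this family.

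Glutathione S-transferases, which couple glutathione to electrophiles, gave 4 rises and 1 fall among 45 genes (8.89% and 2.22%), with a list median of -0.0769. At gst-4, known in C. elegans as a target of the oxidative stress factor SKN-1, the ogt-1 mutant arrays had 8.92, 9.24 and 8.36, against 7.53, 7.22 and 7.43 in wild-type arrays (1.44 ± 0.23, adjusted p = 0.0146). The neighbours gst-14, gst-12 and gst-16 rose by 1.00 ± 0.15, 1.23 ± 0.22 and 0.66 ± 0.12, the last at a marked probe set. The fall was that of gst-22 (-0.59 ± 0.10, adjusted p = 0.0158). Each of these calls depended on some array. That of gst-4 was lost without M1 or W2 (adjusted p = 0.0629 to 0.0750), gst-14 without W2 (adjusted p = 0.0504), gst-12 without M1, M2, W2 or W3 (adjusted p = 0.0624 to 0.107), gst-16 without M2, M3, W2 or W3 (adjusted p = 0.0553 to 0.1002) and gst-22 without M1, M3, W2 or W3 (adjusted p = 0.0508 to 0.0683). In the gap fit the changes of gst-4, gst-14, gst-12, gst-16 and gst-22 were 1.69, 1.09, 1.52, 0.77 and -0.57, near or beyond those above, but none was called (adjusted p = 0.09997 to 0.245). The list median was 0.0187 there, and the block fit gave 4 rises and 2 falls.

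Cytochrome P450 genes had 1 rise and 4 falls among 73 (1.37% and 5.48%, median -0.174), and short-chain dehydrogenases, which reduce carbonyl groups of steroids and lipids, 1 rise and 4 falls among 30 (3.33% and 13.3%, median -0.148). Among them was dhs-11, with 7.62, 7.57 and 7.68 in ogt-1 mutant arrays and 8.21, 8.44 and 8.36 in wild-type arrays (-0.71 ± 0.08, adjusted p = 0.00379), called in all 9 refits. In the block fit, 1 rose and 8 fell among P450 genes and 1 rose and 9 fell among the dehydrogenases. The gap fit kept none of the falls in either list, that of dhs-11 included. Leaving out single arrays left 0 to 5 P450 genes and 1 to 4 dehydrogenase genes called lower. In hypoxia and hydrogen sulfide handling, rhy-1, which encodes an acyltransferase-like inhibitor of the hypoxia factor HIF-1, had 11.64, 11.30 and 11.28 in ogt-1 mutant arrays, against 10.57, 10.13 and 10.38 in wild-type arrays (2.06-fold, 1.05 ± 0.14, adjusted p = 0.00573). The cystathionine gamma-lyase gene cth-1, whose enzyme makes cysteine and hydrogen sulfide, had 7.92, 7.96 and 7.83 in ogt-1 mutant arrays and 8.88, 8.81 and 8.67 in wild-type arrays (-0.88 ± 0.13, adjusted p = 0.0118). The rhy-1 call held in all 9 refits, and that of cth-1 was lost without W2 (adjusted p = 0.0577). In the gap fit neither rhy-1 nor cth-1 was called. With the marked gene cysl-3 (-0.52 ± 0.11, lost without M1, M3, W1, W2, W3 or G1 at adjusted p = 0.0520 to 0.152), 1 of 16 genes of this list rose and 2 fell (block: 3 and 2).

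Small secreted antimicrobial peptides, most of which the epidermis makes against fungi and wounds, rose in 5 of 36 cases and fell in none (13.9%, median 0.186, and 7 and 1 with the block). At cnc-4 the ogt-1 mutant arrays had 12.34, 11.91 and 11.81, against 9.09, 9.91 and 10.78 in wild-type arrays (4.26-fold, 2.09 ± 0.38, adjusted p = 0.0243). At nlp-31, which is marked, the ogt-1 mutant arrays had 10.97, 10.62 and 10.58, against 8.59, 9.26 and 10.05 in wild-type arrays (2.68-fold, 1.42 ± 0.30, adjusted p = 0.0383). Wild-type array 3 came nearest to the mutant arrays at both genes, and wild-type array 1 was the farthest. The marked probe sets of cnc-2, cnc-3 and nlp-33 rose by 1.74 ± 0.34, 0.77 ± 0.17 and 0.82 ± 0.18. No call of the 5 held in every case. That of cnc-4 was lost without M1, M2, M3 or W2 (adjusted p = 0.0529 to 0.1002), nlp-31 without M1, M2, M3, W2, G1, G2 or G3 (adjusted p = 0.0566 to 0.140), cnc-2 without M1, M2, M3, W1, W2, G2 or G3 (adjusted p = 0.0514 to 0.133), cnc-3 without M1, M2, M3, W1, W2, G1, G2 or G3 (adjusted p = 0.0536 to 0.148) and nlp-33 without M1, M2, M3, W1, W2, W3, G2 or G3 (adjusted p = 0.0530 to 0.155). The closely related nlp-29, also marked, had 10.52, 10.39 and 10.17 in ogt-1 mutant arrays and 8.33, 9.04 and 9.82 in wild-type arrays and was not called (adjusted p = 0.0697). Averaged over the 36 genes the signal was 7.78, 7.75 and 7.68 in ogt-1 mutant arrays, against 7.14, 7.30 and 7.53 in wild-type arrays, without overlap. List means were also separate in lists without a call. ABC transporters averaged 7.89 to 7.91 in ogt-1 mutant arrays and 7.93 to 8.09 in wild-type arrays. Endoplasmic reticulum stress genes averaged 9.58 to 9.63 and 9.66 to 9.68 in the same order. Separation of a list mean is therefore a description only.

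Among C-type lectins, sugar-binding proteins of which many are secreted in defence, 3 of 220 rose and 6 fell. The clec-3 signal was 8.58, 9.11 and 8.73 in ogt-1 mutant arrays, against 6.89, 7.23 and 6.71 in wild-type arrays (1.86 ± 0.21, adjusted p = 0.00353). The dimmer genes clec-73, which is marked, and clec-143 rose by 0.80 ± 0.11 and 0.52 ± 0.07, and the 3 rises held in all 9 refits. The largest fall was that of clec-31, which had 5.55, 5.63 and 5.50 in ogt-1 mutant arrays and 6.80, 6.68 and 6.28 in wild-type arrays (-1.03 ± 0.15, adjusted p = 0.00969) and was lost without W2 (adjusted p = 0.0544). In the block fit 4 rose and 15 fell, and the gap fit kept 1 of the 3 rises and none of the 6 falls. In a list of 55 effectors of the dod, irg and related groups 2 rose and 1 fell. One of them, sysm-1, had 8.94, 9.39 and 8.20 in ogt-1 mutant arrays, against 6.80, 7.32 and 7.18 in wild-type arrays (1.74 ± 0.27, adjusted p = 0.0118), with its call lost without M1 (adjusted p = 0.0527). No gene was called among 38 lysozyme, saposin-like and thaumatin-like genes or among 28 genes of the p38 MAP kinase pathway and other immune regulators. Among these regulators the intestinal GATA factor elt-2 had 8.02, 8.20 and 8.70 in ogt-1 mutant arrays and 9.09, 8.89 and 8.94 in wild-type arrays (-0.66 ± 0.15, adjusted p = 0.0535).

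Secreted and surface proteins included a neighbour of shc-1. The cuticlin-like gene cutl-20, which lies next to shc-1 among the measured genes, rose at all 4 of its probe sets. The unmarked one read 12.58, 12.28 and 12.54 in ogt-1 mutant arrays, against 11.45, 10.92 and 10.90 in wild-type arrays (2.60-fold, 1.38 ± 0.18, adjusted p = 0.00633). The 3 marked ones gave 1.73 ± 0.22, 0.78 ± 0.14 and 0.82 ± 0.14. The mutant arrays were higher without overlap throughout. The first 2 of these 4 calls held in all 9 refits, while the next was lost without M1, M2, M3, W2 or W3 (adjusted p = 0.0536 to 0.111) and the last without M1, M2, W2 or W3 (adjusted p = 0.0536 to 0.0970). Neither of the first 2 was called in the gap fit. SCP-like extracellular proteins fell in 3 of 28 cases (10.7%, against 1.51% of all genes) and rose in none. At scl-24 the ogt-1 mutant arrays had 8.77, 8.62 and 8.19 and the wild-type arrays 10.26, 9.90 and 9.62 (2.64-fold lower, -1.40 ± 0.20, adjusted p = 0.00801). At scl-21 the ogt-1 mutant arrays had 7.0, 7.09 and 7.21 and the wild-type arrays 7.80, 8.24 and 8.32 (-1.02 ± 0.13, adjusted p = 0.00511). These 2 calls held in all 9 refits, and that of scl-25 (-0.70 ± 0.13) was lost without M2, M3, W2, W3 or G2 (adjusted p = 0.0502 to 0.0813). None of the 3 was called in the gap fit.

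Transporters moved singly. The solute carrier gene slc-17.5, of the family that carries organic anions and phosphate, had 10.39, 10.75 and 10.75 in ogt-1 mutant arrays, against 9.32, 9.24 and 9.11 in wild-type arrays (2.66-fold, 1.41 ± 0.11, adjusted p = 0.000455). The amino acid carrier gene slc-36.4 had 10.14, 10.63 and 10.31 in ogt-1 mutant arrays, against 9.04, 9.48 and 9.24 in wild-type arrays (2.15-fold, 1.11 ± 0.15, adjusted p = 0.00755). The zinc transporter gene zipt-2.1 had 8.96, 9.29 and 8.77 in ogt-1 mutant arrays and 10.18, 9.95 and 9.96 in wild-type arrays (2.03-fold lower, -1.02 ± 0.15, adjusted p = 0.00911). All 3 calls held in all 9 refits, and zipt-2.1 was not called in the gap fit. In the list of solute carriers for sugars, amino acids and nucleosides 3 of 97 rose and 3 fell (block: 7 and 7, gap: 1 and 0), the falls being those of aat-8, the marked sugar carrier gene swt-7 and the sodium-proton exchanger gene nhx-2. Each of these 3 falls was lost without M1, M2, M3, W1, W2, W3 or G2 (adjusted p = 0.0623 to 0.141) for aat-8, without M1, M2, M3, W1, W2, W3 or G2 (adjusted p = 0.0571 to 0.160) for swt-7 and without M1, M2, M3, W1, W2, W3 or G2 (adjusted p = 0.0577 to 0.151) for nhx-2. The ATPase gene catp-2, of the P-type cation pumps, had 9.36, 9.14 and 9.81 in ogt-1 mutant arrays, against 6.73, 7.0 and 7.89 in wild-type arrays (2.23 ± 0.47, adjusted p = 0.0388), and its call was lost without M1, M2, M3, W1, W2 or G2 (adjusted p = 0.0659 to 0.149). No ABC transporter gene of 54 was called.

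In the secretory pathway, where proteins receive other sugars than O-GlcNAc, 3 of 94 genes of Golgi glycosyltransferases, oligosaccharyltransferase and proteoglycan synthesis fell and none rose (3.19%). The marked oligosaccharyltransferase subunit gene ostd-1 had 11.54, 11.66 and 11.51 in ogt-1 mutant arrays and 11.95, 12.09 and 12.08 in wild-type arrays (-0.47 ± 0.08, adjusted p = 0.0235). The marked subunit gene ostb-1 fell by 0.52 and algn-6, which builds the sugar chain for N-linked transfer, by 0.75 on the log2 scale. Each call depended on some array, being lost without M1, M3, W2 or W3 (adjusted p = 0.0795 to 0.115) for ostd-1, without M1, M2, M3, W2, W3 or G2 (adjusted p = 0.0712 to 0.181) for ostb-1 and without M1, M3, W2 or W3 (adjusted p = 0.0658 to 0.119) for algn-6. Translocon-associated proteins, which sit beside the channel that lets new proteins into the endoplasmic reticulum, were noticed after their values were seen. The marked gene trap-1 had 11.87, 12.01 and 12.16 in ogt-1 mutant arrays and 12.75, 12.58 and 12.58 in wild-type arrays (-0.62 ± 0.09, adjusted p = 0.0110), and a marked probe set of trap-3 gave -0.66 ± 0.09 (adjusted p = 0.00537), both called in all 9 refits. None of 32 genes of the endoplasmic reticulum stress response was called.

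Among genes of germ granules and small RNAs the largest fall was that of prg-1, the PIWI-type Argonaute that binds the worm's piRNAs. Its marked probe set read 10.01, 10.08 and 9.93 in ogt-1 mutant arrays and 11.80, 11.68 and 11.47 in wild-type arrays (3.12-fold lower, -1.64 ± 0.12, adjusted p = 0.000361), and the call held in all 9 refits. Each mutant array lay below every wild-type array. The other 3 falls of the list were smaller. The Argonaute gene csr-1 had 6.76, 7.20 and 7.25 in ogt-1 mutant arrays and 7.56, 7.71 and 7.67 in wild-type arrays (-0.58 ± 0.12, adjusted p = 0.0443), the granule gene deps-1 gave -0.62 ± 0.13 and the marked Argonaute gene ppw-2 -0.56 ± 0.12. Their calls were lost without any one of the 9 arrays (adjusted p = 0.0573 to 0.174) for csr-1, without M1, M2, M3, W1, W2, W3 or G2 (adjusted p = 0.0533 to 0.177) for deps-1 and without M1, M2, M3, W1, W2, W3 or G3 (adjusted p = 0.0583 to 0.157) for ppw-2. In all, 4 of 61 genes fell and none rose (6.56%, median -0.088, and 6 fell with the block). In the list of primordial germ cell and maternal genes 1 of 33 fell, puf-8, an RNA-binding repressor of the PUF family, whose probe set is marked (-0.63 ± 0.13, adjusted p = 0.0383, lost without M1, M2, W2, W3, G1, G2 or G3 at adjusted p = 0.0578 to 0.140), and the median was -0.119. An L1 larva holds a single pair of germline precursor cells.

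Growth machinery showed few calls. None of 30 genes of ribosome synthesis, 32 aminoacyl-tRNA synthetases, 36 translation factors, 33 proteasome subunits or 36 histones was called, and 1 of 70 cytoplasmic ribosomal protein genes was, the marked rpl-11.1 (-0.53 ± 0.12, adjusted p = 0.0470, lost without M1, M2, M3, W2, W3, G1, G2 or G3 at adjusted p = 0.0615 to 0.187). The linker histone gene hil-6 had 11.14, 11.43 and 12.01 in ogt-1 mutant arrays and 10.37, 10.52 and 10.77 in wild-type arrays (adjusted p = 0.0790), and the elongation factor subunit gene eef-1B.2 had 12.53, 12.49 and 12.36 in ogt-1 mutant arrays and 12.94, 12.83 and 12.71 in wild-type arrays (adjusted p = 0.0573). The block fit called 3 histone genes higher. Of 81 genes of the cell cycle and DNA replication the marked rnr-1, the large subunit of ribonucleotide reductase, was the 1 called (-0.55 ± 0.12, adjusted p = 0.0472, lost without M1, M2, M3, W2, W3, G1, G2 or G3 at adjusted p = 0.0515 to 0.189), with a list median of -0.0912.

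Among regulators, the nuclear hormone receptors, a large worm family of ligand-dependent or orphan transcription factors, gave 7 rises and no fall among 259 genes (2.70%, against 1.26% of all genes). The nhr-167 signal was 7.25, 7.13 and 7.16 in ogt-1 mutant arrays, against 6.03, 5.57 and 5.97 in wild-type arrays (1.33 ± 0.12, adjusted p = 0.000753). The nhr-158 signal was 10.42, 10.26 and 10.63 in ogt-1 mutant arrays, against 9.43, 9.38 and 9.59 in wild-type arrays (1.96-fold, 0.97 ± 0.13, adjusted p = 0.00630). The groups were separate at both, and both calls held in all 9 refits. The others, nhr-159 beside nhr-158, the marked nhr-61, nhr-180, nhr-260 and the marked nhr-50, rose by 0.73, 0.70, 0.57, 0.45 and 0.55 on the log2 scale. Their calls were lost without M3, W2 or W3 (adjusted p = 0.0608 to 0.0919) for nhr-159, without M1, M3, W2 or W3 (adjusted p = 0.0593 to 0.110) for nhr-61, without M1, M2, M3, W1, W2 or W3 (adjusted p = 0.0504 to 0.0949) for nhr-180, without M1, M2, M3, W1, W2, W3 or G1 (adjusted p = 0.0515 to 0.145) for nhr-260 and without W2 (adjusted p = 0.0573) for nhr-50. In the block fit 13 rose and 1 fell, and the gap fit kept 1 of the 7 calls.

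The histone demethylase gene jmjd-3.1, whose enzyme removes the Polycomb mark from histone H3 and whose probe set is marked for cross-hybridisation, had 11.17, 11.15 and 11.20 in ogt-1 mutant arrays, against 10.49, 10.47 and 10.43 in wild-type arrays (1.64-fold, 0.71 ± 0.10, adjusted p = 0.00743), called in all 9 refits. It was the 1 called gene of 49 chromatin regulators, and it was not called in the gap fit. At one probe set the forkhead factor gene fkh-9 had 9.03, 9.89 and 9.77 in ogt-1 mutant arrays and 10.53, 10.80 and 10.85 in wild-type arrays (2.24-fold lower, -1.16 ± 0.20, adjusted p = 0.0181), with its call lost without W2 or W3 (adjusted p = 0.0605 to 0.0872). The other fkh-9 probe set, of higher mean signal, was not called (-0.45 ± 0.14, adjusted p = 0.135). One of 10 GATA factors fell, the intestinal elt-7, which had 8.72, 9.33 and 8.96 in ogt-1 mutant arrays and 9.47, 10.08 and 9.77 in wild-type arrays (-0.77 ± 0.17, adjusted p = 0.0481) and was lost without M1, M3, W2, W3, G1, G2 or G3 (adjusted p = 0.0720 to 0.177). No heterochronic gene of 22 was called. Of 60 ceh homeobox genes ceh-10 rose (0.54 ± 0.11, adjusted p = 0.0367, lost without M1, M2, M3, W1, W2, W3 or G2 at adjusted p = 0.0600 to 0.153).

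Chemoreceptor genes, most of which are active in a few sensory neurons, made up 30 of the rises and 12 of the falls among 1261 measured genes (2.38% and 0.952%, against 1.26% and 1.51% of all genes). Both group means lay below the median signal for 1212 of them, so most of their values are near the dim end of the array. Leaving out single arrays gave 11 to 26 rises and 4 to 14 falls, and of the 42 calls 9 rises and 4 falls held in all 9 refits. The block fit gave 37 rises and 19 falls, and the gap fit kept 2 of the 30 rises and 1 of the 12 falls. The srx-56 signal was 10.11, 9.73 and 9.50 in ogt-1 mutant arrays, against 8.07, 8.08 and 8.45 in wild-type arrays (2.98-fold, 1.58 ± 0.16, adjusted p = 0.00126). At srx-68 it was 8.95, 8.87 and 8.72 in ogt-1 mutant arrays, against 6.83, 7.38 and 7.67 in wild-type arrays (1.55 ± 0.20, adjusted p = 0.00511). At the unmarked probe set of srh-2, next to icl-1, it was 8.64, 8.61 and 8.80 in ogt-1 mutant arrays, against 7.69, 6.76 and 6.91 in wild-type arrays (1.57 ± 0.21, adjusted p = 0.00659), and a marked one gave 1.63 ± 0.22. These 3 genes were higher in every mutant array than in any wild-type array. Among the falls that held in all 9 refits was that of srb-16, with 7.52, 7.80 and 7.66 in ogt-1 mutant arrays and 8.37, 8.49 and 8.28 in wild-type arrays (1.65-fold lower, -0.72 ± 0.09, adjusted p = 0.00525).

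Further calls were in genes of the nervous system. The G protein alpha subunit gene gpa-18, named here after its values were seen, had 8.95, 8.79 and 9.05 in ogt-1 mutant arrays, against 7.60, 7.65 and 8.06 in wild-type arrays (2.24-fold, 1.16 ± 0.13, adjusted p = 0.00310), and its other probe set rose by 0.85 ± 0.13. The first call held in all 9 refits and the second was lost without W2 (adjusted p = 0.0571). Among 16 mec genes, a family by name (touch insensitivity) singled out after its values were seen, 3 rose and none fell. The marked mec-9, which encodes a secreted protein of the touch neurons, had 7.81, 7.54 and 7.82 in ogt-1 mutant arrays, against 6.99, 7.01 and 7.15 in wild-type arrays (0.67 ± 0.09, adjusted p = 0.00773), called in all 9 refits. The marked tubulin gene mec-7 gave 0.61 ± 0.12 (lost without M1, M3, W1, W2 or G2 at adjusted p = 0.0529 to 0.135) and the marked mec-18 0.52 ± 0.10 (lost without M1, M2, M3, W2 or W3 at adjusted p = 0.0564 to 0.134). Of 34 guanylyl cyclase genes 3 rose and 2 fell (block: 8 and 3). The rises were those of gcy-6, gcy-23 and the marked gcy-11 (0.53, 0.54 and 0.48), the falls those of gcy-7 and gcy-4 (-0.64 and -0.40), and none of the 5 held in every leave-one-out fit. Calls were lost without M1, M2 or W2 (adjusted p = 0.0531 to 0.0974) for gcy-6, without M1, M2, M3, W1, W2, W3 or G2 (adjusted p = 0.0683 to 0.155) for gcy-23, without M1, M2, M3, W1, W2, W3 or G2 (adjusted p = 0.0603 to 0.119) for gcy-11, without M1, M3, W1 or W2 (adjusted p = 0.0540 to 0.1002) for gcy-7 and without M1, M2, M3, W1, W2 or W3 (adjusted p = 0.0680 to 0.0892) for gcy-4. The neuropeptide receptor gene npr-3 rose by 0.57 ± 0.09 (adjusted p = 0.0118, lost without M1 or W2 at adjusted p = 0.0501 to 0.0655), 1 of 96 in its list. In 3 further lists of 83 hedgehog-related genes, 92 ligand-gated channels and 68 potassium channels, ptr-6, lgc-1 and twk-12 were the single calls, all higher (0.71, 0.45 and 0.47), and in lists of 40 transthyretin-related and 14 osmotic stress genes ttr-27 and the marked osm-11 were, both lower (-0.88 and -0.71). Their calls were lost without M1, M2, M3, W1 or W2 (adjusted p = 0.05002 to 0.111) for the marked ptr-6, without any one of the 9 arrays (adjusted p = 0.0506 to 0.120) for lgc-1, without M1, M2, M3, W1 or W2 (adjusted p = 0.0531 to 0.123) for twk-12, without M1, M3, W1, W2 or W3 (adjusted p = 0.0527 to 0.114) for ttr-27 and without M1, M3, W2 or W3 (adjusted p = 0.0656 to 0.0908) for osm-11. These lists held further calls in the block fit, with 4 rises and 2 falls among hedgehog-related genes, 3 and 1 among ligand-gated channels, 2 and 0 among potassium channels, and 1 and 2 in each of the transthyretin-related and osmotic stress lists. No gene of 59 in sensory cilia was called.

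Several large changes were in genes known here by sequence name, or by a name whose function is not stated. Among the rises, the marked F56A4.10 had 8.90, 9.41 and 8.62 in ogt-1 mutant arrays, against 7.06, 6.64 and 6.60 in wild-type arrays (2.21 ± 0.19, adjusted p = 0.000686). K08E7.5 rose at both probe sets, the marked one with 8.39, 8.61 and 8.73 in ogt-1 mutant arrays against 6.68, 6.89 and 6.76 in wild-type arrays (1.80 ± 0.14, adjusted p = 0.000455) and the unmarked one by 1.13 ± 0.13. The marked phdh-1 had 10.74, 10.77 and 10.78 in ogt-1 mutant arrays, against 9.80, 9.54 and 9.71 in wild-type arrays (2.12-fold, 1.08 ± 0.08, adjusted p = 0.000454). These calls, and that of F18E3.11 (1.44 ± 0.19), held in all 9 refits. Those of pugs-11 (2.13 ± 0.33), ZK6.8 (1.85 ± 0.31), R12G8.1 (1.83 ± 0.30) and F41D3.9 (1.44 ± 0.24) were lost without M1 or W2 (adjusted p = 0.0554 to 0.0588), without M3 or W2 (adjusted p = 0.0579 to 0.0715), without M1 (adjusted p = 0.0690) and without M1, M2, W2 or W3 (adjusted p = 0.0515 to 0.0676) in that order. The nematode-specific peptide gene nspe-1 (1.51 ± 0.29) was lost without M1, M3 or W2 (adjusted p = 0.0884 to 0.108), and the marked Y37A1A.2 (1.43 ± 0.32) without M1, M2, M3, W2, W3, G1, G2 or G3 (adjusted p = 0.0527 to 0.145).

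Among the falls, Y41C4A.32 had 6.14, 5.83 and 6.25 in ogt-1 mutant arrays and 8.37, 8.08 and 7.81 in wild-type arrays (-2.01 ± 0.16, adjusted p = 0.000503). K08B12.3 had 8.85, 8.79 and 8.47 in ogt-1 mutant arrays and 10.59, 10.36 and 10.02 in wild-type arrays (3.07-fold lower, -1.62 ± 0.15, adjusted p = 0.000781). ZK973.8 had 7.70, 7.59 and 7.37 in ogt-1 mutant arrays and 8.86, 9.07 and 8.72 in wild-type arrays (2.51-fold lower, -1.33 ± 0.11, adjusted p = 0.000659). The mutant arrays were below every wild-type array at all 3. With the marked T16G1.7 (-1.3 ± 0.16), the marked C25F9.5 (-1.1 ± 0.13) and C25G4.7 (-1.16 ± 0.09), these calls held in all 9 refits. T22F3.11 fell at both probe sets, with a change of -1.88 ± 0.28 at the unmarked one, which was called in all 9 refits, and of -1.97 ± 0.30 at the marked one, which was lost without M1 or W2 (adjusted p = 0.0539 to 0.0573). Calls of F10C2.7 (-1.53 ± 0.29) were lost without M1, M3, W1, W2 or W3 (adjusted p = 0.0509 to 0.113), of tag-293 (-1.45 ± 0.26) without M1, M2, M3, W2 or W3 (adjusted p = 0.0586 to 0.0765) and of the marked H34I24.2 (-1.23 ± 0.27) without M1, M3, W1, W2, W3, G1, G2 or G3 (adjusted p = 0.0562 to 0.177). Those of Y4C6B.3 (-1.18 ± 0.25), C35C5.8 (-1.16 ± 0.25) and Y111B2A.2 (-1.06 ± 0.21) were lost without M1, M2, M3, W1, W2, W3 or G1 (adjusted p = 0.0612 to 0.104), without M1, M2, M3, W2, W3, G1 or G2 (adjusted p = 0.0630 to 0.145) and without M1, M2, M3, W1, W2 or G1 (adjusted p = 0.0537 to 0.118) in that order. The other probe sets of H34I24.2 (unmarked, -0.73 ± 0.19, adjusted p = 0.0797) and C35C5.8 (-0.57 ± 0.24, adjusted p = 0.294) were not called.

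**Figure D4:**
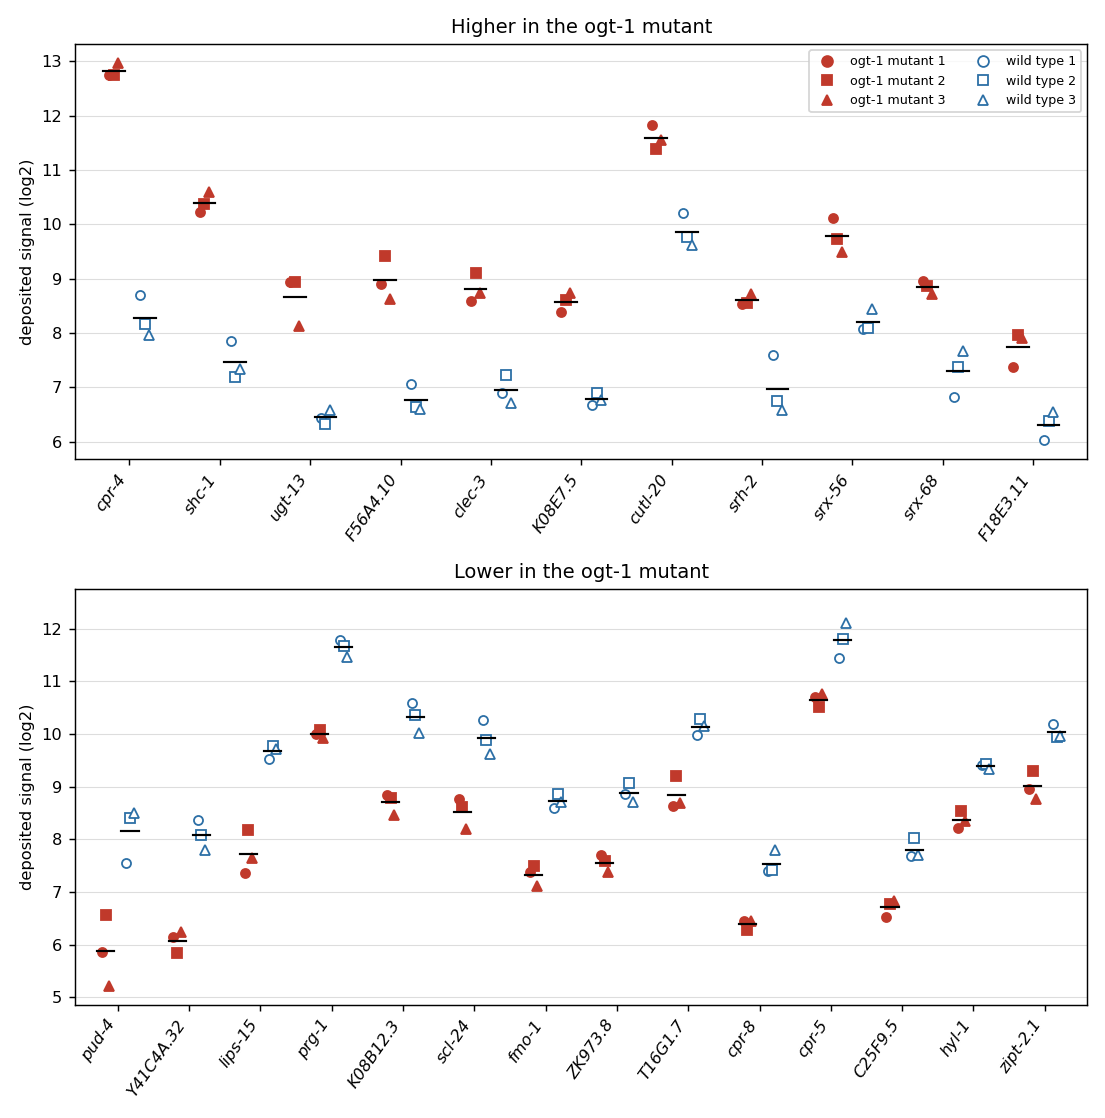
Deposited log2 signal in each ogt-1 mutant array (red, filled) and wild-type array (blue, open), with group means as bars, for the 25 of the 50 genes named by size of change, 1 probe set each, that were called whichever array was left out (rises in the upper plot, falls in the lower). Genes were named by size only where the 2 groups do not overlap, so the separation seen here follows from that choice. Replicates are marked by circle (1), square (2) and triangle (3).

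The makeup of the larvae was read from marker lists. Among 36 intestine markers 1 rose (cpr-4) and 3 fell (cpr-5, elt-7 and the sodium-proton exchanger gene nhx-2), and the median change was -0.23, the list mean being 10.13, 10.31 and 10.14 in ogt-1 mutant arrays and 10.49, 10.29 and 10.24 in wild-type arrays, with overlap. In the block fit 1 rose and 8 fell, and in the gap fit the median was -0.132. Lipid, P450 and UDP-glucuronosyltransferase genes, many of them active in the intestine, had negative medians beside it, and the part of a difference in intestine RNA in their falls was not tested. No gene was called among 31 epidermis markers, 27 pharynx markers or 48 genes of body wall muscle, with medians of 0.0106, -0.0221 and 0.0241, and 1 of 62 neuronal genes was called. The list means of epidermis (8.62 to 8.74 in ogt-1 mutant arrays, 8.61 to 8.77 in wild-type arrays), muscle (10.91 to 11.03 in ogt-1 mutant arrays, 10.87 to 11.04 in wild-type arrays) and neurons (9.60 to 9.65 in ogt-1 mutant arrays, 9.48 to 9.71 in wild-type arrays) overlapped. Markers of adults and embryos were mostly dim: both group means lay below the median signal for all 5 vitellogenins, 18 of 28 embryonic genes and 50 of 74 sperm genes, among which spe-4 was the 1 called (0.64 ± 0.12, adjusted p = 0.0233, lost without M1, M2, W1, W2 or W3 at adjusted p = 0.05004 to 0.0813). The block fit called 4 sperm genes higher. The mean over the sperm list was 6.87, 6.55 and 6.52 in ogt-1 mutant arrays, against 6.47, 6.49 and 6.43 in wild-type arrays, so that the groups did not overlap and M1 stood apart. List means were also separate in some lists without a call, as given above. None of the 23 msp genes, which encode the major sperm proteins, was called, and their median change was 0.525. The median change of the sperm list was 0.0938, and it was 0.0457 without W1, M1 and G3. The part of these sperm signals in other results was not tested.

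Cuticle genes gave 1 call. No gene was called among 128 col collagens or 20 named body-shape collagens, and among the genes of moulting and the apical matrix cutl-20 was the 1 called (0.893%). In stress responses, none of 20 mitochondrial stress genes was called, and 2 of 61 small heat shock and chaperone genes fell, hsp-12.1 (-0.86 ± 0.16, lost without W2, W3 or G2 at adjusted p = 0.0523 to 0.120) and the marked dnj-29 (-0.38 ± 0.08, lost without M1, M2, M3, W1, W2, W3, G1 or G2 at adjusted p = 0.0520 to 0.157). Of 44 genes of oxidative stress defence gpx-4, a glutathione peroxidase, fell (-0.60 ± 0.11, adjusted p = 0.0214, lost without M1, M3, W2 or W3 at adjusted p = 0.0653 to 0.106), and with the block 2 rose and 4 fell. F-box genes and genes with BATH or MATH domains, which recruit targets to ubiquitin ligases and are mostly dim here, fell in 3 of 310 and 3 of 85 cases and rose in none (block: 2 higher and 7 lower of the F-box genes). The skr genes, related to Skp1, which joins F-box proteins to their ligase, were singled out after their values were seen and fell in 3 of 19 cases, skr-4 by 0.88, skr-2 by 0.67 and the marked skr-13 by 0.94 on the log2 scale, with calls lost without M1, M2, M3, W2, W3, G1, G2 or G3 (adjusted p = 0.0506 to 0.145), without M1, M2, M3, W2, W3 or G2 (adjusted p = 0.0643 to 0.152) and without W2 (adjusted p = 0.0695) in that order.

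**Figure D5:**
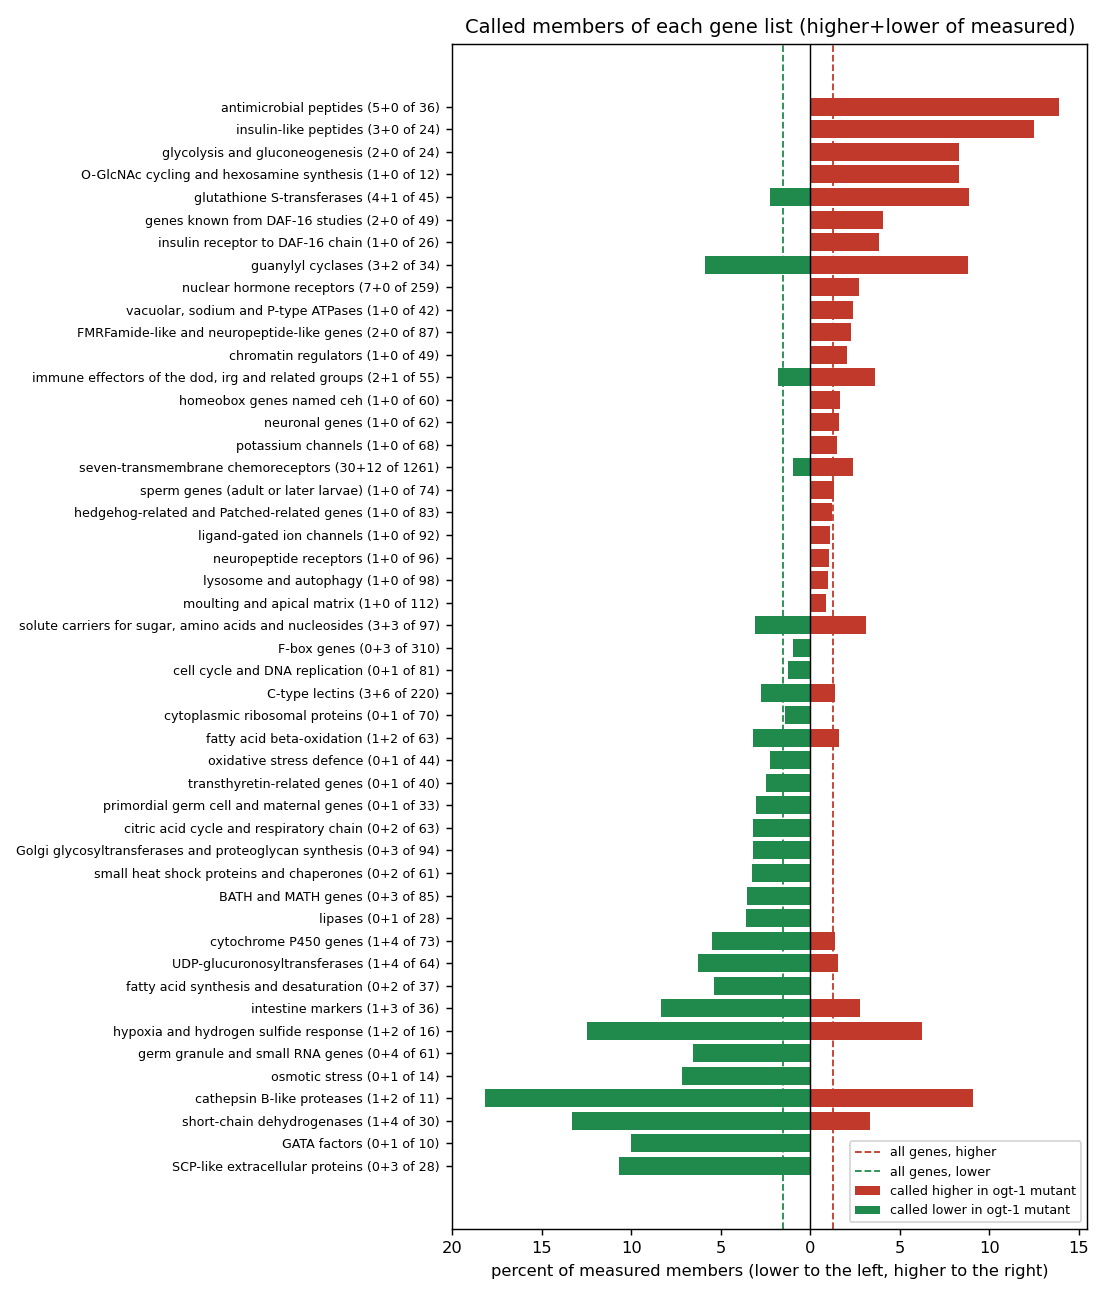
Share of each gene list's measured members called in the ogt-1 mutant, in percent, lower to the left (green) and higher to the right (red), for the lists of 10 or more measured genes with at least 1 call. Dashed lines mark the shares over all genes, 1.51% lower and 1.26% higher; antimicrobial peptides reach 13.9% higher with 5 calls and cathepsin genes 18.2% lower with 2, so most bars rest on few genes.

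Position on the chromosomes is given since a deletion strain can carry linked sequence from the strain in which the allele was made. None of the 40 measured genes nearest to ogt-1, 20 on each side, was called, against 2.77% of all 17078 genes placed in order by the RefSeq annotation. Among the 473 called genes in that order, 61 stood in 29 runs of neighbours called in the same direction (18 runs higher, 11 lower). The 3 longest held 3 genes each. They were gst-14, gst-12 and gst-16, and cnc-4, cnc-3 and cnc-2, all higher, and the marked C49F5.6, spig-15 and sma-5, all lower (-0.75, -0.93 and -0.46). The kinase gene sma-5 of the last run, which affects body size, had 8.12, 8.21 and 8.09 in ogt-1 mutant arrays and 8.69, 8.65 and 8.47 in wild-type arrays, and its call was lost without M1, M2, M3, W1, W2 or G2 (adjusted p = 0.0518 to 0.133), that of spig-15 without M1, M3, W2, W3, G1, G2 or G3 (adjusted p = 0.0520 to 0.150) and that of C49F5.6 without M1 or W2 (adjusted p = 0.0508 to 0.0588). Pairs in which both genes passed a change of 1 were cutl-20 and shc-1 (higher), cpr-5 and cpr-8, pud-3 and pud-4, and Y111B2A.2 and the marked herd-1 (all lower). Neighbours that share sequence can share probes, which bears on the marked genes among them.

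Of the lists with no call above, 10 held 1 to 3 calls in the block fit. These were 3 rises among histones, 1 rise and 1 fall among epidermis markers, 2 falls among lysozyme, saposin-like and thaumatin-like genes, and 1 fall each among dauer pathway, mitochondrial stress, ABC transporter, immune regulator, col collagen, translation factor and pharynx genes.

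For the 50 genes named by size of change, other fits gave the following. All 50 calls remained in the block fit and with the arrays centred on the spikes. The block was read from these data and raised the calls from 584 to 1034, so the block fit is no separate check. Centring on the spikes called 1257 in all, 117 higher and 1140 lower. Fitted on the 6 arrays alone, 16 were lost (pugs-11, cnc-4, R12G8.1, cnc-2, acs-2, nspe-1, Y37A1A.2, nlp-31, pud-3, F10C2.7, H34I24.2, Y4C6B.3, C35C5.8, fkh-9, Y111B2A.2 and acox-3, adjusted p = 0.0515 to 0.102). In the gap fit 15 stayed called. They were K08E7.5, srx-56, pugs-11, cpr-4, ugt-13, shc-1 and F56A4.10, which rose, and Y41C4A.32, lips-15, prg-1, K08B12.3, fmo-1, ZK973.8, cpr-8 and hyl-1, which fell. The other 35 had adjusted p-values of 0.0523 to 0.561. There cpr-4 changed by 4.65, shc-1 by 2.90 at its probe set of largest change and prg-1 by -1.57. A refit without W1, M1 and G3 together, chosen after seeing the data as the arrays of lowest weight, called 262 probe sets and lost 19 of the 50 (catp-2, pugs-11, cnc-4, sysm-1, cnc-2, acs-2, nspe-1, gst-4, F41D3.9, Y37A1A.2, nlp-31, pud-3, T22F3.11, F10C2.7, H34I24.2, Y4C6B.3, Y111B2A.2, acox-3 and zipt-2.1).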

How the data were processed

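Total RNA of whole fed L1 larvae was hybridised to 9 one-colour expression arrays, 3 for each of ogt-1 mutant, oga-1 mutant and wild type. The values used are the log2 signals per probe set deposited by the authors. MAS5, RMA and Partek are named per the submitters' processing notes, with no role or version, and which of them made the values is not stated. The signals span 3.74 to 14.9, and the number of arrays limits the precision.

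All 9 arrays were fitted by limma 3.58.1 (lmFit and eBayes) in R 4.3.3, without further normalization. The change is the ogt-1 mutant minus wild type, and Benjamini-Hochberg adjustment covered 22548 probe sets, 77 controls being left out. The platform annotation gave 1 symbol for 20766 probe sets, several for 887 (never named) and none for 895. Symbols were looked up in a RefSeq table of assembly WBcel235, to which 20701 matched and which also gave neighbour order. None differed from the platform annotation. Of all probe sets 6711 are marked.

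Named genes are ogt-1 and oga-1, the 25 largest rises and 25 largest falls among called genes whose higher mean reached the median signal and whose groups did not overlap, the 5 smallest p-values each way, up to 5 members of each list by p, and neighbours called together. The mec and skr genes outside the lists, gpa-18, trap-1 and trap-3 were chosen after their values were seen. Some list members beyond the first 5 by p are named too, among them nhr-180, nhr-260 and srb-16. Members and the 71 gene lists were chosen with earlier results of these data known.

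Same-numbered ogt-1 mutant and wild-type arrays deviated together (r over probe sets = 0.192, 0.1004 and 0.303, against -0.236 to 0.0299 for other numbers), so the numbers were taken to pair the arrays, on the data alone, and a fit with the replicate number as a block was run. Deviations were taken from each group's mean and cancel within a group, so the values for other numbers are no separate evidence. That block also used the numbers of the oga-1 mutant arrays, which were not checked in this way. Other alternatives were the 6 arrays alone, quantile normalization, centring on the hybridisation spikes, array weights, trended and robust eBayes, the actin, GAPDH and ubiquitin gap as a covariate, a minimum change of 0.5, bright or unmarked probe sets alone, and leaving out each array. Exact permutation tests of the control measures were two-sided. Tested on data simulated with the fitted spread of each probe set (22548 probe sets), the fit called 28.36% of changes of 0.5, 89.55% of changes of 1 and all of those of 2 (log2), with 3 false calls. The simulated noise was independent between probe sets and arrays and held no control difference between the groups. The real arrays differ in their controls, so these rates are not error rates of the calls above.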

Additional observations from a re-analysis of the deposited data

How the results depend on the processing

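The 584 calls changed with the processing as follows. They became 1034 with the replicate number as a block, 1295 with array weights, 1257 with centring on the spikes (117 higher, 1140 lower), 270 on the 6 arrays alone, 49 with the control gap as a covariate, 23 at a minimum change of 0.5 and 262 without wild type 1, ogt-1 mutant 1 and oga-1 mutant 3. Leaving out 1 array gave 138 to 533 calls. Quantile normalization gave 583, trended and robust eBayes 594, unmarked probe sets 403 and bright probe sets 404. Under centring on the spikes the change turned negative at mec-5 (-0.0525), vit-2 (-0.134) and the oga-1 probe sets (-0.118, -0.145 and -0.107). One oga-1 probe set ranged over -0.0273 to 0.178 with single arrays left out. The vit-6 change turned positive with the gap covariate (0.0101) and ranged over -0.0805 to 0.0336 with single arrays left out. None of these genes was called, and the cause was not tested. The block with paired numbers lost none of the 50 calls named by size, but it was read from these data, called more probe sets and is no separate check. Signal over background was not assessed, which limits the dim probe sets.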
